A study of Mus musculus with 8 samples.

Results

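The regions described here are 348 stretches of the mouse genome at which the H3K9ac signal of each butyrate library was above that of each vehicle library. They were taken from 11251 regions in a deposited chromatin immunoprecipitation table, of which 5736 had a mean read number, scaled to library size (CPM), of at least 4.5 over the 6 libraries and are called well-covered below. Regions were chosen by the H3K9ac values themselves: a region entered when it was well-covered and its lowest butyrate value exceeded its highest vehicle value, which 6.07% of the well-covered regions did. Without the minimum 769 of all regions (6.83%) would have entered. The opposite pattern, each butyrate library below each vehicle library, was met by 423 well-covered regions (7.37%), more than the set described here. With 3 libraries per group, chance alone puts a share of regions not far below these into either order. Being in the set therefore does not mark a region as responding to butyrate. The differences between the groups are given as a description and carry no test.

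The study measured acetylation of lysine 9 on histone H3 (H3K9ac) in intestinal epithelial cells of wild-type mice of the C57Bl/6 strain, taken from the terminal part of the ileum. One group received vehicle and the other 150 mM butyrate for 7 days, with 3 libraries per group, S1 to S3 for vehicle and S4 to S6 for butyrate. An input library of each treatment was not analysed here. The labels do not give the animals' age or sex, how butyrate was given, or whether the libraries of a group came from separate mice, so the spread between libraries may be partly technical. The sample is a bulk one, in which more cells carrying the mark and more mark per cell cannot be told apart.

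H3K9ac is laid down by histone acetyltransferases and removed by histone deacetylases, and it is concentrated around the start sites of active genes. Butyrate is a short-chain fatty acid that gut bacteria release from dietary fibre, intestinal epithelial cells use it as a fuel, and it inhibits the zinc-dependent histone deacetylases. The deposited values of every library were scaled to nearly the same sum over all regions, so a gain spread evenly over the genome cannot be seen in them, and each value is relative to the other regions of its library.

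Most of the regions lay at gene starts, and some promoters at which the 2 groups stood farthest apart are shown first. The windows below are RefSeq sequence (GRCm38.p6, the mm10 build), from 250 bases before to 30 bases after the annotated start, 5′ to 3′ on the gene's strand. Capitals mark motif letters found on either strand: the GC box as GGGCGG, the box of TATA-type promoters as TATAAA, the E-box as CACGTG, the ETS site as CCGGAAG, the YY1 site as ANATGGCGG, the GATA site as AGATAA, and the CCAAT box. Fos (chr12:85473640-85473919, plus strand) and Jun (chr4:95052193-95052472, minus strand) encode the partners of the AP-1 transcription factor. The Fos window held 1 GC box and 1 TATA box, and the Jun window 1 GC box, 1 CCAAT box and 1 GATA site.
Fos: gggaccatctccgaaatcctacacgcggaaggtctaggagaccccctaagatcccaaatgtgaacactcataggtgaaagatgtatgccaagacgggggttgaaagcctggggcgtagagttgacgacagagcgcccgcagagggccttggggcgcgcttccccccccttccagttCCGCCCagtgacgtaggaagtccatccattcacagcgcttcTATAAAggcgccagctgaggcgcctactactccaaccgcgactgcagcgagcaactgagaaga
Jun: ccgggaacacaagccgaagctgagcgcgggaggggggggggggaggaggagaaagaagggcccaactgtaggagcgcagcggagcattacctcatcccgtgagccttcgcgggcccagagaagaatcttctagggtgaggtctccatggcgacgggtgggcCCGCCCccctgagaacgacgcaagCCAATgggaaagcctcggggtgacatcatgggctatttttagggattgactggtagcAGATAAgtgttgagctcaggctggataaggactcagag

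Arf5 (chr6:28423354-28423633, plus strand) encodes a small GTPase of the Golgi. Its window had a GC content of 70.4% and held 4 GC boxes and 1 E-box, with no TATA box.
Arf5: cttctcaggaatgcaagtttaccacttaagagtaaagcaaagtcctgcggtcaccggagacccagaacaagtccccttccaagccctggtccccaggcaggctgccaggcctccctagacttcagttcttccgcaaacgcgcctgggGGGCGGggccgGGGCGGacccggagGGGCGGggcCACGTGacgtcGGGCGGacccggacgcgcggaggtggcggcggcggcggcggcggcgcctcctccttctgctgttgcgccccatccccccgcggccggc
Tmem260 (chr14:48446102-48446381, plus strand) encodes a membrane glycosyltransferase, and its window is shown because the YY1 letters were found in a larger share of these promoters than of all well-covered ones, as described below. It held 1 YY1 site and 1 ETS site.
Tmem260: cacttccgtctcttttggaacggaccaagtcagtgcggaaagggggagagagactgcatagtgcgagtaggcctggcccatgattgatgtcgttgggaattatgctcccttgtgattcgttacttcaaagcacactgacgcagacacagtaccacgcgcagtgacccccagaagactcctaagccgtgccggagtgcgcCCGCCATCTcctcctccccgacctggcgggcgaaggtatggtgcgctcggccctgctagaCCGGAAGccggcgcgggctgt
Cops9 (chr1:92641919-92642198, minus strand) encodes a small subunit of the COP9 signalosome, and its window held 2 ETS sites close to the start.
Cops9: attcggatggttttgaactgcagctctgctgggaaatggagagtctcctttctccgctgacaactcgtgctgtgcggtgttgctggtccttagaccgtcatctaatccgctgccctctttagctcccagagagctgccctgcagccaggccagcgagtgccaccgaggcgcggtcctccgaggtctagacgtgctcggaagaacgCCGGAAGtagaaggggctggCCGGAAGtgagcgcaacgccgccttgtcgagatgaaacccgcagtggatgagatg

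The region with the largest ratio was not at a protein-coding start. It lay 7047 bases upstream of Arl4d in the deposited annotation, which calls it intergenic, at chr11:101657713-101659275. GENCODE places Rnu2-10, a gene for the U2 small nuclear RNA of the spliceosome, inside it. U2 genes have close copies, and how reads matching several places were counted is not given in the sources used here, so the values of this region are uncertain. The 300 bases at its centre (chr11:101658345-101658644, plus strand) had a GC content of 44.3% and held none of the motifs searched.
Arl4d region centre: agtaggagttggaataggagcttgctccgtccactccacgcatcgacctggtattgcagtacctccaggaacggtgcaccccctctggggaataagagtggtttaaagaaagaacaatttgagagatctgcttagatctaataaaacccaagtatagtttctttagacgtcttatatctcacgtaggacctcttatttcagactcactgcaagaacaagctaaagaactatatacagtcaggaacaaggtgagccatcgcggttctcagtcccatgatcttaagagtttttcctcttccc

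Wdr45b, a phosphoinositide-binding protein of autophagosome formation, had the widest separation between groups for its counting error. Its region covered the start and part of the first intron of the gene (chr11:121352305-121355428). The vehicle libraries gave 4.93, 5.11 and 4.91 RPKM, the read number per kilobase of region scaled to library size, and the butyrate libraries 6.42, 6.51 and 6.58 RPKM. The means were 4.98 ± 0.113 and 6.50 ± 0.0821 RPKM (SD, n = 3 each), a log2 ratio of 0.38. The values within each group lay close together, and the lowest butyrate library was 1.26 times the highest vehicle library.

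Prdm2, which encodes a histone H3 lysine 9 methyltransferase, was also among the 5 regions with the widest separation, with a region over its promoter (chr4:143211854-143213363). Its RPKM was 8.17, 8.13 and 8.24 with vehicle and 10.96, 10.69 and 9.77 with butyrate, means of 8.18 ± 0.0542 and 10.5 ± 0.623 (SD, n = 3 each). The vehicle libraries were nearly equal and all the spread was among the butyrate libraries, S6 being the lowest.

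Fos had a region of 7.77 kb that covered the whole gene (chr12:85471531-85479300). It gave 7.18, 6.66 and 7.07 RPKM with vehicle and 7.95, 9.08 and 9.09 RPKM with butyrate. The read numbers behind these values were 1440, 923 and 1136 with vehicle and 1370, 1263 and 1590 with butyrate, so counting error was small here. The groups did not overlap, and butyrate library S4 stood below the other two. A separate well-covered region 21884 bases upstream of Fos did not share the pattern, at 2.00 ± 0.399 RPKM with vehicle and 1.80 ± 0.188 with butyrate (SD, n = 3 each).

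Jun had a region over its single exon (chr4:95048093-95053949) with 8.57, 7.18 and 7.59 RPKM in the vehicle libraries and 9.16, 9.23 and 9.22 RPKM in the butyrate libraries. The butyrate libraries were almost the same, and the lowest of them was 1.07 times the nearest vehicle library, S1. The log2 ratio of the means was 0.24.

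Arf5 gave 5.55, 6.26 and 5.99 RPKM with vehicle and 7.51, 7.91 and 7.66 with butyrate over chr6:28422985-28424899, a log2 ratio of 0.37. At the Arl4d region the vehicle libraries gave 2.78, 2.91 and 2.85 RPKM and the butyrate libraries 4.96, 3.90 and 5.03, with means of 2.84 ± 0.0636 and 4.63 ± 0.637 (SD, n = 3 each). The ratio of 1.63 was the largest of all 348, although S5 stood well below the other butyrate libraries and the region held only 81 to 177 reads per library. A second well-covered region, at the Arl4d start itself, was higher on average but overlapped between groups, at 2.62 ± 0.465 and 3.22 ± 0.556 RPKM (SD, n = 3 each).

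The other regions among the 12 with the widest separation were at Rnf25, Extl3, Tmem260, Lrrfip1, Khnyn and Cops9. Rnf25 encodes a ubiquitin ligase and shares its start region with Stk36, and it went from 1.68 ± 0.0620 to 2.33 ± 0.0207 RPKM (SD, n = 3 each) over chr1:74599049-74601658. Extl3, a glycosyltransferase that starts heparan sulphate chains, went from 5.41 ± 0.116 to 6.86 ± 0.245 RPKM. Khnyn, a cofactor of the zinc finger antiviral protein, went from 6.38 ± 0.360 to 8.16 ± 0.842 RPKM, with butyrate library S6 alone at 9.13. The other 3 had ratios between 1.24 for Lrrfip1 and 1.28 for Tmem260 and Cops9. Their widest spreads were at Lrrfip1 with butyrate, 5.95 ± 0.383 RPKM, and at Cops9 with vehicle, 3.89 ± 0.279 RPKM.

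**Figure D1:**
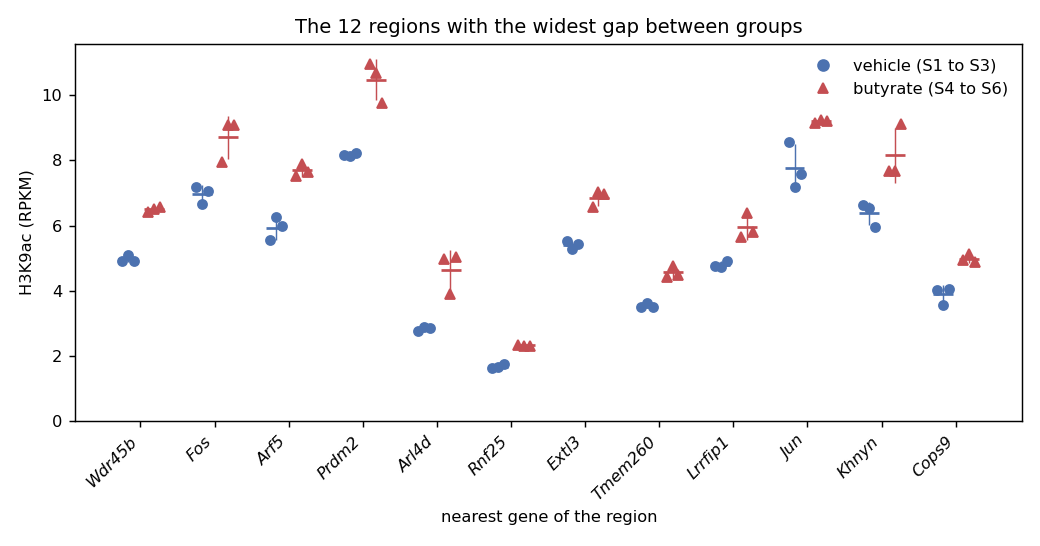
H3K9ac in RPKM (vertical axis) for each library at the 12 regions with the widest gap between groups relative to counting error (horizontal axis, nearest gene). Circles are vehicle libraries, triangles butyrate libraries, bars the mean and SD of 3 libraries. In each region the lowest triangle sits above the highest circle, with levels from below 2 RPKM at Rnf25 to above 10 RPKM at Prdm2.

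Large ratios were rare. The median ratio of the group means was 1.16, and the log2 ratios ran from 0.03 to 0.70. The butyrate mean was over 50% above the vehicle mean in the Arl4d and Parp8 regions only, over 25% above it in 67 regions and less than 10% above it in 46. Over all well-covered regions the median log2 ratio was -0.00, against 0.22 for the chosen ones. The median RPKM of the 348 regions was 3.76 to 3.88 in the vehicle libraries and 4.46 to 4.55 in the butyrate libraries. Over all well-covered regions it was 3.89 to 3.97 in all 6 libraries, with no order between the groups.

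Parp8, a mono-ADP-ribosyltransferase, was next after the Arl4d region by ratio, with 1.74, 2.26 and 2.26 RPKM with vehicle and 3.37, 2.83 and 3.50 with butyrate over chr13:117024133-117025870. Dnmt1, the maintenance DNA methyltransferase, gave 2.48, 2.88 and 2.69 RPKM with vehicle and 4.73, 3.96 and 2.96 with butyrate over chr9:20951485-20952924. Its butyrate values ran over a wide range, and S6 was only 1.03 times the highest vehicle library. The rest of the 10 largest ratios were A430033K04Rik, Rnf25, Sec16b of the endoplasmic reticulum exit sites, Gpaa1 of the GPI anchor transamidase, the mitochondrial ribosomal protein gene Mrps9, the brush border aminopeptidase gene Enpep and the integrin gene Itga1, at 1.37 to 1.47.

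**Figure D2:**
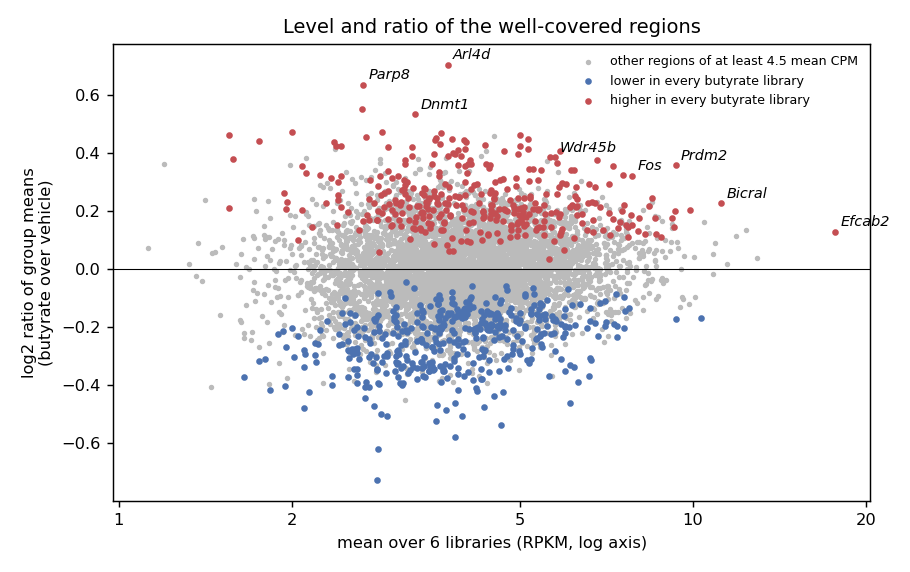
Each point is a well-covered region, by its mean over 6 libraries (horizontal, RPKM, log axis) and the log2 ratio of its group means, butyrate over vehicle (vertical). Red points are the 348 regions higher in every butyrate library, blue points the 423 lower in every butyrate library, and grey points the rest. The red points span log2 ratios from 0.03 to 0.70, and the largest ratios lie at low to middle levels.

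The levels ran from 1.55 to 17.7 RPKM. The highest was Efcab2, a protein with calcium-binding EF hands, at 16.9 ± 0.392 RPKM with vehicle and 18.5 ± 0.244 with butyrate (SD, n = 3 each). It was followed by a region 25945 bases upstream of the deposited Bicral start and within the Bicral gene of GENCODE, a subunit gene of a BAF chromatin remodelling complex, at 10.3 ± 0.601 and 12.1 ± 1.04 RPKM. Zfp335, Prdm2 and the Golgi GTPase gene Arf1 completed the 5 highest. In the top quartile of well-covered regions by RPKM, from 4.86 upwards, 125 of 1434 (8.72%) were higher in every butyrate library. In the other quartiles the share was 5.09%, 5.58% and 4.88%. For regions lower in every butyrate library the order differed, with 8.72% in the bottom quartile and 6.35% in the top one. The quartiles by read number, region length, GC content and CpG content had shares between 5.02% and 7.12%.

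**Figure D3:**
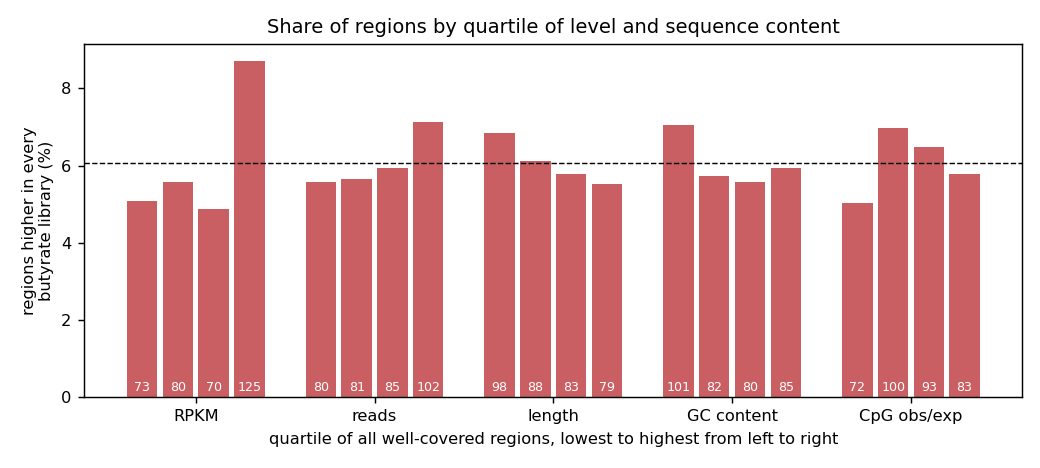
Share of well-covered regions that were higher in every butyrate library (vertical, percent) in quartiles of all well-covered regions by RPKM, read number, region length, GC content and the observed over expected CpG ratio (horizontal, lowest to highest). The dashed line is the 6.07% over all well-covered regions, and white figures are numbers of regions. The top RPKM quartile stands highest, at 8.72% with 125 regions.

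The separation between groups was narrow in most regions. The lowest butyrate library was a median of 1.04 times the highest vehicle library, with a maximum of 1.34 at Arl4d. In 302 regions (86.8%) the gap was smaller than its own counting error, computed from the read numbers of the 2 nearest libraries, in 41 it was 1 to 2 counting errors and in 5 it was over 2. These 5 were Wdr45b, Fos, Arf5, Prdm2 and Arl4d. The gap was above 10% of the vehicle value in 57 regions, above 20% in 9 and below 2% in 108. No library set the boundary throughout. The lowest butyrate library was S4 in 138 regions, S5 in 95 and S6 in 115, and the highest vehicle library was S1 in 128, S2 in 111 and S3 in 109.

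**Figure D4:**
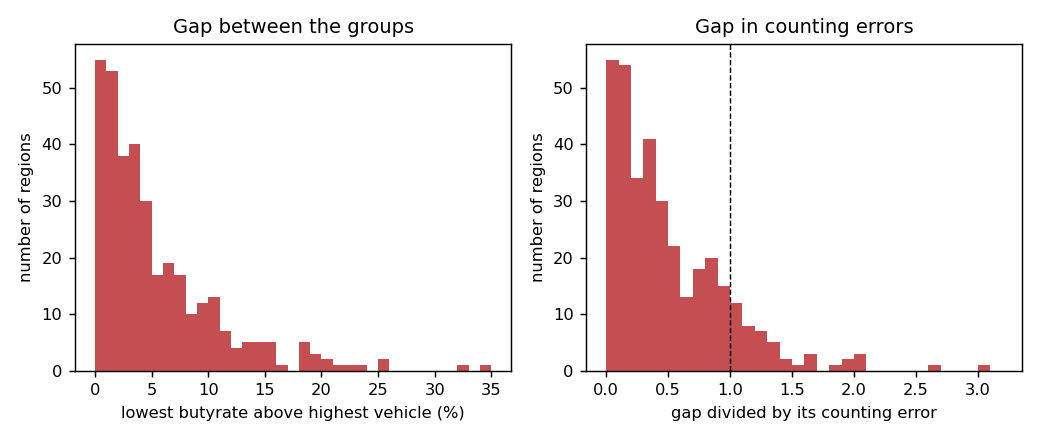
Distribution of the gap between groups over the 348 regions, as the percent by which the lowest butyrate library exceeded the highest vehicle library (left) and as that gap divided by its counting error (right, dashed line at 1). The vertical axes count regions. Most regions lie near 0, and 46 lie at or beyond the dashed line.

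The thresholds passed through a dense part of the data. Just inside the minimum of 4.5 CPM were A430033K04Rik at 4.502 and Pip4k2c at 4.51 CPM, and just outside were Srp14 at 4.48 and Cby1 at 4.47 CPM. Just inside the separation were Zfp959, with S6 and vehicle library S3 both at 3.27 RPKM to the printed digits, and Rmdn1, with S6 and S3 both at 2.48. Just outside were Dnpep and Trafd1, where the nearest libraries were equal at 4.61 and 5.08 RPKM to the same precision.

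The authors' deposited table calls 6 well-covered regions higher with butyrate at a false discovery rate (FDR) of 0.1, which is 0.105% of them (11 of all regions, 0.0978%), and all 6 are among the 348. In the authors' deposited table the log2 fold changes of these are 0.71 for Arl4d, 0.65 for Parp8, 0.39 for Wdr45b, 0.38 for Arf5, 0.36 for Prdm2 and 0.32 for Fos. A limma fit of log2(RPKM + 1) over 10529 regions called none in either direction after Benjamini-Hochberg adjustment at 0.05 (0%), with 765 regions at an unadjusted p under 0.05. The same tool with voom weights on the recovered reads called 4 of 9048 regions higher (0.0442%). These fits used the values that chose the regions, so nothing is read from them about the set.

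Most of the 348 regions were ordinary promoters. By distance, 298 (85.6%) lay within 1 kb of the deposited start site, against 83.2% of the well-covered regions and 76.4% of those lower in every butyrate library. A protein-coding start of GENCODE fell in 333 of them (95.7%), against 93.6% of the well-covered regions. Starts of genes on opposite strands within 1000 bases of each other, as at bidirectional promoters, were present in 54 (15.5%), against 12.3% and, for the lower regions, 9.46%. The median length was 2.19 kb, the median GC content 53.4% and the median observed over expected CpG ratio 0.65, close to the 2.24 kb, 53.8% and 0.65 of all well-covered regions. The deposited annotation placed 187 in introns, 101 at promoters, 26 in exons, 14 in 5′ UTRs and 7 in intergenic sequence.

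Of these regions 274 held a start with a RefSeq promoter window of 300 bases. The YY1 letters ANATGGCGG were present in 25 of them (9.12%), against 5.71% of 4290 windows in well-covered regions, 4.30% of the windows lower in every butyrate library and 1.86% of all 32851 windows. The cAMP response element TGACGTCA was present in 18 (6.57%), against 4.01%, 2.98% and 1.79%. The GC box went the other way, at 69.3% against 71.9% of the well-covered and 78.1% of the lower windows. The AP-1 letters TGANTCA were in 12 windows (4.38%), against 4.22% of the well-covered ones. The ETS site was in 23.7%, against 22.8%, and the remaining motifs searched were the CCAAT box, the NRF1 site and the ZBTB33 element (given by name alone), the E-box, TATA box, GATA site and the CArG box. Their shares among the chosen windows were 35.0%, 2.55%, 1.46%, 7.30%, 5.47%, 2.92% and 1.09%, each within 2.5 percentage points of the well-covered share. The E-box and GATA site were in 9.7% and 4.43% of the well-covered windows, and in 7.95% and 3.31% of the lower ones. Motifs were searched on both strands, the E-box and cAMP response element read the same on both, and a match is only a run of letters.

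Over all well-covered regions 6.07% were in the set and 7.37% in the opposite one, and no gene list was tested against these shares. Immediate early genes respond to growth factor and stress signals within minutes. Among them 4 of 30 well-covered regions (13.3%) were higher in every butyrate library and 3 lower, with a median log2 ratio of 0.00. Besides Fos and Jun these were Dusp1, a MAP kinase phosphatase, and Zfp36, which binds AU-rich messages for decay. Dusp1 gave 4.51, 4.81 and 5.21 RPKM with vehicle and 5.80, 5.40 and 5.35 with butyrate. Zfp36 had the smallest log2 ratio of the 4, 0.12, at 8.28 ± 0.0998 and 8.99 ± 0.492 RPKM (SD, n = 3 each).

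The enzymes of histone lysine methylation had a median log2 ratio of 0.04, with 2 of 46 regions in the opposite set. Against 6.07% of all well-covered regions, 6 of the 46 (13.0%) were in the set. Next to Prdm2 they were Ezh1, a catalytic subunit of Polycomb repressive complex 2, the demethylase genes Kdm1a and Kdm2a, and the PR-domain genes Prdm4 and Prdm10. Ezh1 gave 5.12, 5.67 and 5.08 RPKM with vehicle and 6.12, 6.35 and 6.50 with butyrate. The other 4 had log2 ratios of 0.14 to 0.22, and their groups stood apart by less. Enzymes that act on acetyl groups had a share below the overall one. Of 44 regions at histone acetyltransferases, deacetylases and their complexes, 2 (4.55%) were in the set and 3 in the opposite one. Ep300, an acetyltransferase, was among them, at 6.83 ± 0.310 and 7.70 ± 0.393 RPKM (SD, n = 3 each). No deacetylase gene of that list was in the set. The chromatin remodelling list had 1 of 40, the DNA methyltransferase gene Dnmt1, and 1 in the opposite set. That list was not complete, since the regions of Bicral and Smarcad1 were in the set but not counted under it.

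Mediator and RNA polymerase subunits had a median log2 ratio of 0.01 and no region in the opposite set. Against 6.07% of all well-covered regions, 3 of 21 (14.3%) were in the set. These were the Mediator genes Med4 and Med9 and Ccnc, the cyclin of its kinase module. Med4 gave 2.92, 3.24 and 2.87 RPKM with vehicle and 4.2, 4.17 and 3.92 with butyrate, a log2 ratio of 0.44 and a clear gap. Ccnc and Med9 had log2 ratios of 0.29 and 0.26. Splicing factors had 4 of 88 regions (4.55%) in the set and 5 in the opposite one. The largest ratio of the 4 was that of Ddx60, a helicase known for antiviral responses rather than splicing, at 2.81 ± 0.0767 and 3.68 ± 0.454 RPKM. U2af1, which recognises the 3′ splice site, was at 3.58 ± 0.394 and 4.495 ± 0.151 RPKM (SD, n = 3 each). Zinc finger (Zfp) genes had 10 of 130 regions in the set (7.69%) and 5 in the opposite one.

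Small GTPases of vesicle traffic had a median log2 ratio of 0.05, with 4 of 58 regions in the opposite set. Against 6.07% of all well-covered regions, 8 of the 58 (13.8%) were in the set. They were Arl4d, Arf5, Rab11b of recycling endosomes, Arf1, Arl5a, Rab5c of early endosomes, Rac1 of the actin cytoskeleton, and Arl14ep, which encodes an effector and not a GTPase. Rab11b gave 4.43, 4.44 and 3.64 RPKM with vehicle and 5.43, 4.91 and 5.17 with butyrate. The lowest of these ratios was that of Rac1, at a log2 ratio of 0.12. Golgi and vesicle coat genes had 7 of 122 (5.74%) in the set and 7 in the opposite one. Among those in the set were Sec16b, the syntaxin gene Stx17, Trappc6b of a tethering complex and Ap3b1 of an adaptor complex. Stx17 gave 3.92, 3.4 and 4.77 RPKM with vehicle and 5.0, 5.31 and 5.71 with butyrate, so vehicle library S3 came near the butyrate ones.

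Molecular chaperones had 5 of 42 regions in the set (11.9%, against 6.07% of all well-covered regions) and 1 in the opposite one. All 5 in the set encode J-domain co-chaperones, Dnaja3, Dnajc16, Dnajc22, Dnajc3 and Dnajb14. Dnaja3, the mitochondrial one, gave 1.84, 2.24 and 2.18 RPKM with vehicle and 3.01, 2.54 and 2.84 with butyrate. Dnajb14 had the smallest log2 ratio of the 5, 0.11, at 4.62 ± 0.244 and 4.98 ± 0.230 RPKM (SD, n = 3 each). Genes of the unfolded protein response had 3 of 27 (11.1%) and 2 in the opposite set, with a median log2 ratio of -0.03. The 3 were Dnajc3, the stress sensor gene Ern1 and Edem1 of protein disposal. Proteasome subunits had 2 of 27 (7.41%) and 1 in the opposite set. Psmb8, a subunit of the immunoproteasome, gave 3.11, 3.32 and 3.23 RPKM with vehicle and 4.83, 4.4 and 3.93 with butyrate, a log2 ratio of 0.45, and Psmb2 had a log2 ratio of 0.35. The list of ubiquitin ligases and proteases had 9 of 161 regions in the set (5.59%) and 14 in the opposite one. It also took in the ubiquitin-conjugating enzyme genes Ube2e1, Ube2j2 and Ube2z, and Usp6nl, which encodes neither a ligase nor a protease. Autophagy genes had 2 of 30 (6.67%), Wdr45b and Atg5, and 0 in the opposite set. Atg5 differed by a log2 ratio of 0.14 only.

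**Figure D5:**
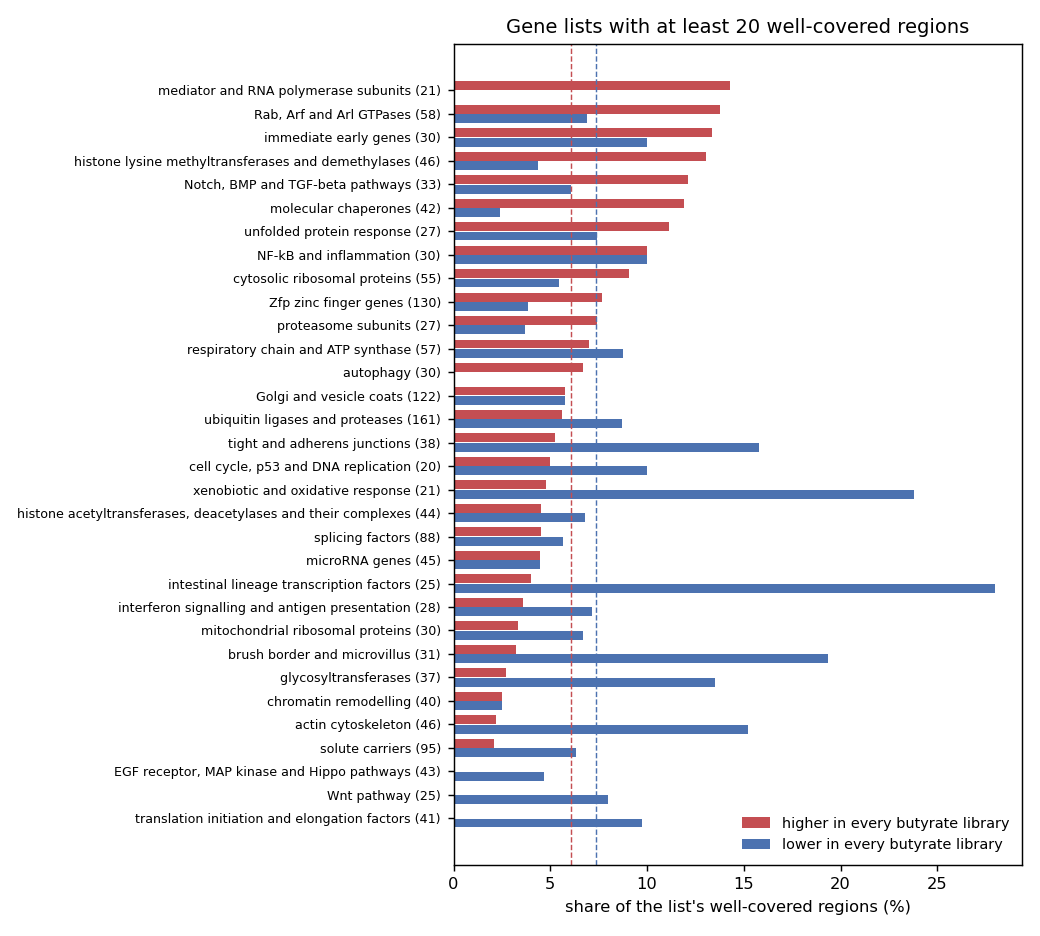
Share of the well-covered regions of each gene list (horizontal, percent) that were higher (red) or lower (blue) in every butyrate library, for lists with at least 20 such regions, whose number is in parentheses. Dashed lines are the shares over all well-covered regions, 6.07% and 7.37%. The highest red bars, at 13.0% to 14.3%, rest on 3 to 8 regions each, and the longest blue bar is that of the intestinal lineage transcription factors at 28.0%.

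Signalling lists lay on both sides of the overall share of 6.07%. Notch, BMP and TGF-beta pathway genes had 4 of 33 regions (12.1%) and 2 in the opposite set, with a median log2 ratio of -0.00. In the set were Tgfbr2, a receptor of TGF-beta, and Rbpj, the DNA-binding protein of Notch signalling. The other members were Id1, a target of BMP signalling, and Skil, a repressor of SMAD proteins. Tgfbr2 gave 4.79, 5.21 and 5.22 RPKM with vehicle and 5.90, 6.29 and 5.55 with butyrate. The Skil region lay 16554 bases upstream of the gene (chr3:31077202-31079806) and gave 1.99 ± 0.249 and 2.50 ± 0.222 RPKM, whereas the region at the Skil promoter was level, at 7.69 ± 0.567 and 7.68 ± 0.811 (SD, n = 3 each). NF-kB and inflammation genes had 3 of 30 (10%), Tollip, Tab1 and Tab2, with log2 ratios of 0.10 to 0.22. As many, 3 of 30, were in the opposite set, and the median log2 ratio of the list was -0.00. The Wnt pathway had 0 of 25 and the EGF receptor, MAP kinase and Hippo pathways 0 of 43, each with 2 in the opposite set.

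Among the markers used to check the labelled cell type, 3 of 17 well-covered epithelial ones were in the set, read beside 6.07% over all well-covered regions. Markers in the opposite set were not counted, and no rise of epithelial markers is read from this. The lineage factor, brush border and junction lists described below had more regions in the opposite set. Of 18 epithelial markers all had a region, and the 3 among the 348 were Epcam, Fabp2 and Krt20. Markers of immune cells had a region for 1 of 15 genes, Ptprc, and those of stroma, vessels, muscle and nerve for 1 of 13, Vim, neither of them well-covered, so the labelled cell type was met by its markers. Epcam, the epithelial adhesion molecule, gave 7.67, 7.05 and 7.54 RPKM with vehicle and 7.70, 8.83 and 8.18 with butyrate, with S1 and S4 almost equal. Fabp2, a fatty acid binding protein of enterocytes, went from 2.55 ± 0.185 to 3.10 ± 0.351 RPKM, and Krt20, a keratin of mature enterocytes, from 2.73 ± 0.228 to 3.41 ± 0.744 RPKM with S5 alone at 4.26 (SD, n = 3 each).

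Among intestinal lineage transcription factors 1 of 25 regions (4.0%) was in the set and 7 (28.0%) in the opposite one. The 1 was at Hnf4g, a nuclear receptor of enterocytes. It lay 128036 bases from the start used in the deposited annotation, over another GENCODE start of the same gene (chr3:3633805-3638326). This region gave 1.73, 1.96 and 1.76 RPKM with vehicle and 2.02, 2.05 and 2.21 with butyrate. A region 269 bases from the deposited Hnf4g start, not well-covered, was level at 1.97 ± 0.245 and 1.99 ± 0.284 RPKM (SD, n = 3 each). Brush border genes had 1 of 31 in the set and 6 in the opposite one. The 1 was a region 26193 bases upstream of Ezr, which links actin to the microvillus membrane, at 2.11 ± 0.271 and 2.47 ± 0.139 RPKM (SD, n = 3 each). GENCODE has a long non-coding RNA start, 4933426B08Rik, in this region. A well-covered region 4613 bases from the Ezr start was outside the set, at 4.51 ± 0.207 and 4.84 ± 0.226 RPKM. The brush border list was not complete, since the aminopeptidase gene Enpep was in the set but not counted under it. Junction genes had 2 of 38, Epcam and the catenin gene Ctnnd1, and 6 in the opposite set, the actin cytoskeleton 1 of 46, Myh9, and 7, and xenobiotic response genes 1 of 21, Cyp3a13, and 5.

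Metabolic and translation genes lay on both sides of the overall share of 6.07%. Cytosolic ribosomal proteins had 5 of 55 (9.09%), respiratory chain and ATP synthase genes 4 of 57 (7.02%), cholesterol synthesis genes 1 of 10, Hmgcs1, glycolysis genes 1 of 13, Eno1, mitochondrial ribosomal proteins 1 of 30, solute carriers 2 of 95 and glycosyltransferases 1 of 37. In the same order these lists had 3, 5, 1, 3, 2, 6 and 5 regions in the opposite set. Ndufb5, a subunit of complex I whose region also holds the start of Mrpl47, gave 3.79, 3.15 and 3.36 RPKM with vehicle and 5.07, 4.25 and 4.41 with butyrate. Rpl22, a protein of the large ribosomal subunit, gave 3.08, 3.11 and 3.07 RPKM with vehicle and 3.50, 3.87 and 3.85 with butyrate. In both the nearest libraries of the 2 groups were over 10% apart, and in the other 8 ribosomal and respiratory members they were closer. Translation factors had 0 of 41, fatty acid oxidation and ketogenesis 0 of 17, the circadian clock 0 of 13, bile acid handling 0 of 6, and the transport, sensing and activation of butyrate itself 0 of 5. Their numbers in the opposite set were 4, 2, 3, 2 and 0. In all, 97 of the 348 regions were in any of the 40 lists, which hold 1621 well-covered regions.

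Some complexes came up repeatedly among the 348 regions, and they were picked out after the members had been seen, so that their counts are high by choice beside the overall 6.07%. Protein phosphatase 4 had 3 of its 5 regions in the set, with log2 ratios of 0.16 to 0.17. They were at the catalytic subunit gene Ppp4c and the regulatory subunit genes Ppp4r2 and Ppp4r3b. The regions at Ppp4r1 and Ppp4r3a had lower butyrate means, at log2 ratios of -0.07 and -0.08. The median of 0.16 over the 5 falls on a chosen region and does not describe the complex. Genes of RNA m6A methylation had 4 of 14, Virma, Ythdc1, Ythdc2 and Pcif1, and Rbm15 in the opposite set, with a median log2 ratio of -0.00 and a higher butyrate mean in 7 of the 14. Virma, the scaffold of the methyltransferase complex, gave 3.98, 3.16 and 3.98 RPKM with vehicle and 5.29, 4.94 and 4.70 with butyrate. The signal recognition particle and its receptor had 3 of 7, Srp68, Srp9 and Srprb, with the receptor gene Srpr in the opposite set. Their median log2 ratio was 0.14, with a higher butyrate mean in 4 of the 7. The core subunits of COMPASS and Polycomb complexes had 4 of 16, Rbbp5, Ezh1, Pcgf5 and Wdr82, with a median of 0.04 and a higher butyrate mean in 9 of the 16. The COP9 signalosome had 3 of 9, Cops9, Cops2 and Cops7a, but its median log2 ratio was -0.03, so the rest of the complex did not share the pattern.

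Few regions of the set lay near one another or shared a gene. The 348 regions had 347 nearest genes, and Lpin2, a phosphatidate phosphatase, was the only gene with 2 of them. These lay 17394 bases apart on chromosome 17, at log2 ratios of 0.10 and 0.38. One other pair lay within 20 kb, Nudt18 and Fam160b2 on chromosome 14, at 0.36 and 0.11. Of the members' genes 45 had further regions, 56 in all, and 10 of those regions were well-covered and outside the set. Of these 10, 7 had a higher butyrate mean, with a median log2 ratio of 0.03, against 0.22 in the chosen regions.

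Within groups the 348 regions varied less than others, as the way they were chosen favours. Their median coefficient of variation was 5.61% over the vehicle and 5.40% over the butyrate libraries, against 8.65% and 8.91% over all well-covered regions. Effective library sizes were 17846924 to 25805595, and 1255251 to 1828591 reads per library fell in the regions. The median region of the set held 148 to 217.5 reads in a library.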

How the data were processed

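H3K9ac was read from a single deposited table covering 3 vehicle and 3 butyrate libraries. Its column names give the group of a library but no sample number. Per the submitters' processing notes the build was mm10, and STAR, Picard, HOMER and the authors' edgeR are listed without versions or roles. How regions were called, merged and counted is not given in the sources used here, nor is whether positions count from 0 or 1. The coordinates are as deposited.

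Per the file headers, the authors give RPKM per library, mean RPKM and mean CPM per group, a log2 fold change and log2 CPM, and a p-value with its FDR. The deposited RPKM values are per kilobase of region, scaled to an effective library size. Multiplied by length and that size they gave whole reads for 100% of values (tolerance 0.01 reads). These reads were used for counting errors, which are Poisson and cover counting only.

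Regions with a mean CPM of at least 4.5 whose lowest butyrate value exceeded the highest vehicle value were taken. The members and the 40 gene lists were chosen with earlier results of these data known. Named were the members with the 12 widest gaps per counting error, the 10 largest ratios and the 5 highest levels, list members (up to 6, otherwise 4, per list), the 8 farthest from a start, those the authors called, and those nearest the thresholds. Some results that this rule names are not reported here. Region sequence, RefSeq promoter windows and GENCODE starts were of GRCm38. A limma (3.58.1, R 4.3.3) fit on log2(RPKM + 1), for regions with a mean RPKM of at least 1, was tested on simulated data. Its alternatives were voom weights, other pseudocounts, filters and scalings, and each library left out. Library pairs within a group differed by more than sampling noise (chi-square per degree of freedom 1.95 to 2.12). Each library was counted as a sample of its own, although this spread cannot show that they came from separate mice. Tables were handled with Python 3.11.15.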

Additional observations from a re-analysis of the deposited data

How the results depend on the processing

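The number of regions moved with the rule. A minimum of 9 CPM gave 169 regions, no minimum 769, and a lowest butyrate library at least 1.1 times the highest vehicle library 57, against 348. Leaving out 1 library at a time gave 588 to 690 regions, since fewer libraries have to be in order. The alternative scalings gave 354 to 365 regions, 330 to 348 of them shared. With a pseudocount of 1 the median log2 ratio was 0.17 instead of 0.22, since adding 1 shrinks ratios at low levels. The limma fit called 0 regions, while voom weights on the recovered reads called 13 over all regions and 9 at a mean of at least 25 reads, and the cause was not tested. The direction of the named regions was fixed by how they were chosen and says nothing about stability. Of 1056 values over 96 named regions and 11 settings, 3 moved by more than the spread between libraries, those of Wdr45b, Rnf25 and Tmem260 with a pseudocount of 1. No paired analysis was possible because the columns carry no replicate numbers. With 148 to 217.5 reads in the median region of a library, counting error was larger than most gaps between groups.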
